A study of Mus musculus with 6 samples.

Results

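The genes described here are the G protein-coupled receptor (GPCR) kinases Grk2, Grk3, Grk4, Grk5 and Grk6 and the beta-arrestins Arrb1 and Arrb2, 7 of the 23557 genes in the table. The family was chosen by the level of Grk3, which was larger in each H89-treated tumor than in each NaCl tumor. The Grk3 values are therefore given as a description with no test, and only the other 6 genes were tested. Levels are in CPM, counts per 1000000 counts of the tumor, and all 7 reached the average of 0.5 CPM set for testing a gene.

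The tumors came from CT26, a murine colon carcinoma line of BALB/c origin, grown under the skin of Balb/c mice after an injection of 500000 cells. In 3 mice H89, a kinase inhibitor used mainly against protein kinase A, was given intraperitoneally at 10 mg/kg, 2 times a week, and 3 mice received NaCl on the same schedule. The mice were female, 7 weeks old when bought and treated from day 6, and the tumors were removed on day 14 after injection. No genotype other than the Balb/c strain is given, and each group is 1 line of tumor cells in 3 hosts, so the p-values measure the spread between these tumors. Whole-tumor RNA was sequenced on the BGISEQ-500 platform, with 27067349 to 31958793 estimated counts per tumor. In whole tumors, fewer cells of a type and less RNA per cell cannot be told apart. Among markers of gut epithelium, Krt20 was at 94.95 to 103 CPM in NaCl tumors and 65.8 to 81.4 CPM in H89-treated tumors, and Krt18 at 13.2 to 23.6 and 7.76 to 8.31 CPM. Lgals4 was at 5.60 to 6.87 and 6.72 to 8.12 CPM, Cdh1 at 1.04 to 2.84 and 1.11 to 2.37 CPM, Krt8 at 0.149 to 1.35 and 0.456 to 2.18 CPM and Krt19 at 0 to 0.396 and 0.243 to 2.53 CPM. Epcam, Cdx2 and Vil1 did not exceed 1.18, 0.304 and 0.187 CPM in any tumor. The median log2 fold change of the 6 of these 9 markers that were tested was 0.15, and the list summed to 116 to 130.1 CPM in NaCl tumors and 85.3 to 99.7 CPM in H89-treated tumors.

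When an agonist activates a GPCR, GPCR kinases phosphorylate its intracellular loops and tail, and beta-arrestins then bind the phosphorylated receptor, stop its coupling to G proteins and hand it to clathrin and AP2 for endocytosis. Arrestins also act as scaffolds for MAP kinases and ubiquitin ligases. Grk2 and Grk3 reach the membrane by binding free G protein beta-gamma subunits, whereas Grk4, Grk5 and Grk6 attach by lipid contacts and are a separate subfamily, and in leukocytes both kinases and arrestins tune the response to chemokines.

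Grk2 and Grk3 are near relatives, and how well short reads tell them apart bears on every value below. Their coding sequences are identical at 74.55% of aligned positions, and the longest stretch that both hold without a mismatch is 30 bases long. It lies in exon 1 of 21 in each gene, on the minus strand, at chr19:4305940-4305993 for Grk2 and chr5:113015405-113015458 for Grk3 (GRCm38, GENCODE M21), and is shown because it is the place where reads of these kinases are hardest to separate. The capitals mark the shared stretch and the lower case letters the 12 bases on either side.
Grk2: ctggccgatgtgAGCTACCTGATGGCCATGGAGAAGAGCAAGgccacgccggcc
Grk3: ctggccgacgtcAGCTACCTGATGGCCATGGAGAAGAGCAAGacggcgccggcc
No word of 31 bases was therefore shared between the coding sequences of the pair. Against the annotated transcripts of all other genes, 12 of the 8697 words of 31 bases in Grk3 (0.138%) and 7 of the 4526 in Grk2 (0.155%) also occurred elsewhere. The share was 12.7% in Grk4 (610 of 4824 words, spread over 452 other genes), 2.30% in Grk5, 2.21% in Grk6, 1.26% in Arrb1 and 1.12% in Arrb2. By this share the Grk4 values are the least certain of the 7 as to the gene that gave the reads. The 142 shared words of Arrb1 were spread over more genes (4253), and the reads themselves were not examined. Coding identity was 68.78% between Grk5 and Grk6, 64.04% between Grk4 and Grk5 and 67.2% between Arrb1 and Arrb2.

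Values are CPM after TMM normalization for library size. Of the 6 members tested, 0 passed a Benjamini-Hochberg adjusted p of 0.05 in edgeR's quasi-likelihood test, where 1.59% of all genes tested did (208 of 13118). At an unadjusted p under 0.05, 1 of the 6 was counted (Grk4), where 25% of all genes tested were, and DESeq2's Wald test, which called 10.6% of all genes tested, called the same gene. The 3 H89 values all lay above the 3 NaCl values for Grk4, as for 15.2% of all genes tested, and the groups overlapped for the other 5.

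**Figure D1:**
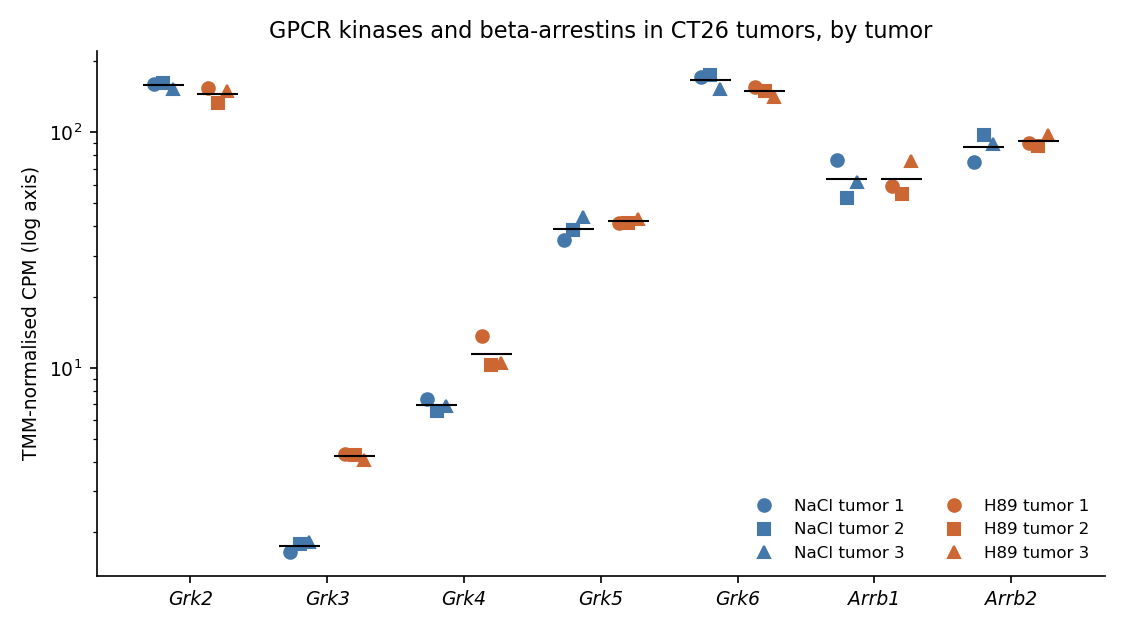
TMM-normalised CPM of the 7 genes in each tumor on a log axis, with NaCl tumors in blue, H89-treated tumors in orange and a black line at each group mean. The groups stand apart for Grk3 (1.66 to 1.83 against 4.08 to 4.32 CPM) and Grk4 (6.57 to 7.38 against 10.2 to 13.6 CPM) and overlap for the other 5 genes.

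Grk3 (ENSMUSG00000042249), the second kinase that G protein beta-gamma subunits recruit, lies on chromosome 5 from 112910482 to 113015791, minus strand, and has 6 annotated transcripts, 3 of them protein-coding, 2 with a retained intron and 1 marked for nonsense-mediated decay. It was at 1.66, 1.79 and 1.83 CPM in NaCl tumors 1 to 3. In H89-treated tumors 1 to 3 it was at 4.32, 4.26 and 4.08 CPM. The H89 values lay close together and well clear of the NaCl values, with 1.83 CPM the highest on one side of the gap and 4.08 CPM the lowest on the other. The means were 1.76 ± 0.0909 and 4.22 ± 0.125 CPM (SD over 3 tumors each), and the log2 fold change was 1.26 with a standard error of 0.18. These levels rest on 46.1, 48.1 and 50.03 estimated counts in NaCl tumors and 121, 140 and 134 in H89-treated tumors, the fewest of the 7 genes. The gene-level counts do not separate the 6 transcripts.

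Grk2 (ENSMUSG00000024858, chromosome 19 from 4286001 to 4306222, minus strand), the ubiquitous kinase of this pair and the one best known for phosphorylating adrenergic and chemokine receptors, was at 160, 162 and 153 CPM in NaCl tumors. It was at 155, 134 and 150 CPM in H89-treated tumors. H89-treated tumor 2 had the lowest value and H89-treated tumor 1 lay within the NaCl range, so the groups overlapped. The means were 158 ± 4.54 and 146 ± 11.1 CPM (SD over 3 tumors each), and the log2 fold change of -0.12 (standard error 0.09) did not pass edgeR's quasi-likelihood test (Benjamini-Hochberg adjusted p = 0.430). Because Grk2 outweighed Grk3 in every tumor, the sum of the pair followed Grk2, with 162, 164 and 155 CPM in NaCl tumors, 159, 138 and 154 CPM in H89-treated tumors (log2 fold change -0.09). Grk3 made up 0.440% to 0.509% of the summed CPM of the 5 kinases in NaCl tumors and 1.17% to 1.25% in H89-treated tumors. Grk2 made up 42.1% to 42.7% and 39.3% to 42.98%.

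Grk4 (ENSMUSG00000052783, chromosome 5 from 34660379 to 34755305, plus strand), a kinase best known from testis and kidney, was at 7.38, 6.57 and 6.91 CPM in NaCl tumors. It was at 13.6, 10.2 and 10.5 CPM in H89-treated tumors. All 3 H89 values lay above all 3 NaCl values, and H89-treated tumor 1 stood above the other two. The means were 6.95 ± 0.407 and 11.5 ± 1.88 CPM (SD over 3 tumors each), and the log2 fold change of 0.72 (standard error 0.16, unadjusted p = 0.00176) missed the threshold after Benjamini-Hochberg adjustment over all genes in edgeR's quasi-likelihood test (adjusted p = 0.0620). DESeq2's Wald test gave 0.72 with a Benjamini-Hochberg adjusted p of 0.00375, and over all alternatives that adjusted p ranged from 0.00375 to 0.169. Its share of the summed kinase CPM was 1.71% to 1.96% in NaCl tumors and 3.01% to 3.68% in H89-treated tumors. An antisense gene, Gm42560, overlaps the Grk4 locus but shares 0 exon bases with it.

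Low abundance went together with positive fold changes over the whole table, and Grk3 and Grk4 had the lowest CPM of the members. Over the 5361 tested genes with a mean below 20 CPM the median log2 fold change was 0.16, against -0.06 over the genes at 20 CPM or more and 0.00 over all genes tested. Grk3 lay above the 95th percentile of all genes tested (0.79) and Grk4 between the 75th (0.23) and the 95th. The part of abundance in either value was not tested.

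**Figure D2:**
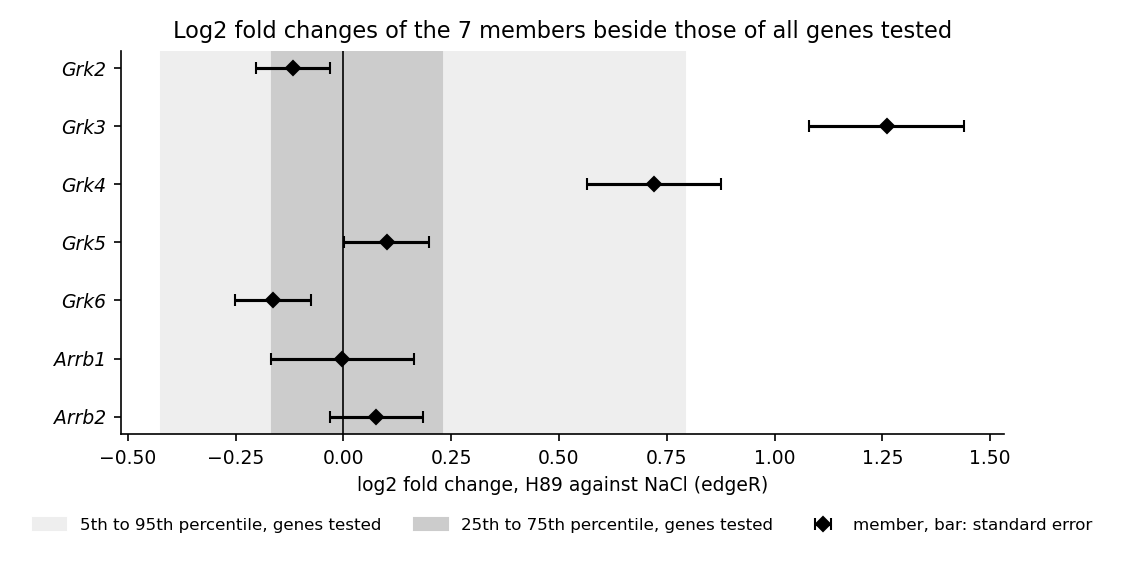
Log2 fold change of each gene, H89 against NaCl, from edgeR, with bars for the standard error, over grey bands for the percentiles of all 13118 genes tested. Grk3 (1.26, which chose the family) lies to the right of the 5th to 95th percentile band and Grk4 (0.72) near its right edge, and the other 5 lie between -0.16 and 0.10.

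Grk5 (ENSMUSG00000003228, chromosome 19 from 60889749 to 61095968, plus strand), which binds membrane phospholipids and can also enter the nucleus, was at 35.0, 38.5 and 43.6 CPM in NaCl tumors. It was at 41.3, 41.4 and 42.8 CPM in H89-treated tumors. The H89 values fell within the NaCl range. The log2 fold change was 0.10 with a standard error of 0.10 (edgeR, Benjamini-Hochberg adjusted p = 0.558), on means of 39.0 ± 4.31 and 41.8 ± 0.860 CPM (SD over 3 tumors each). Its share of the summed kinase CPM was 9.30% to 12.1% in NaCl tumors and 11.1% to 12.3% in H89-treated tumors.

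Grk6 (ENSMUSG00000074886, chromosome 13 from 55445072 to 55460927, plus strand), a palmitoylated kinase prominent in blood cells, was at 172, 176 and 154 CPM in NaCl tumors. It was at 156, 150 and 141 CPM in H89-treated tumors. NaCl tumor 3 lay inside the H89 range, and the other NaCl tumors lay above it. The means were 167 ± 12.04 and 149 ± 7.57 CPM (SD over 3 tumors each), and the log2 fold change of -0.16 (standard error 0.09) did not pass (edgeR, Benjamini-Hochberg adjusted p = 0.291). Summed with Grk5, its nearest relative, the level was 207, 214 and 197 CPM in NaCl tumors and 198, 192 and 184 CPM in H89-treated tumors, and the log2 fold change of the sum was -0.11 with a standard error of 0.08 (edgeR, Benjamini-Hochberg adjusted p = 0.420). The 5 kinases together came to 373 ± 13.0 CPM in NaCl tumors and 353 ± 15.7 CPM in H89-treated tumors (SD over 3 tumors each), a sum that overlapped between the groups.

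Arrb1 (ENSMUSG00000018909) lies on chromosome 7 from 99535466 to 99606771, plus strand. This beta-arrestin, which can also enter the nucleus, was at 76.3, 52.6 and 61.5 CPM in NaCl tumors. It was at 59.4, 54.8 and 75.8 CPM in H89-treated tumors. NaCl tumor 1 and H89-treated tumor 3 had the high values, and the ranges nearly coincided. The means were 63.4 ± 11.99 and 63.3 ± 11.0 CPM (SD over 3 tumors each), and the log2 fold change of -0.00 (standard error 0.17) did not pass (edgeR, Benjamini-Hochberg adjusted p = 0.994). With NaCl tumor 1 left out the log2 fold change was 0.15, and with H89-treated tumor 3 left out it was -0.15.

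Arrb2 (ENSMUSG00000060216, chromosome 11 from 70432635 to 70440828, plus strand), the beta-arrestin most often tied to chemokine receptor endocytosis and chemotaxis, was at 74.9, 97.2 and 88.8 CPM in NaCl tumors. It was at 90.1, 87.8 and 97.1 CPM in H89-treated tumors. NaCl tumor 1 had the lowest value and NaCl tumor 2 the highest, so the H89 range lay inside the NaCl range. The means were 87.0 ± 11.2 and 91.7 ± 4.85 CPM (SD over 3 tumors each), and the log2 fold change of 0.08 (standard error 0.11) did not pass (edgeR, Benjamini-Hochberg adjusted p = 0.689). With NaCl tumor 1 left out it was -0.02. The microRNA gene Mir7115 shares 64 of the exon bases of Arrb2 (2.25%), so reads there could belong to either.

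The beta-arrestins together varied less than either alone among NaCl tumors, at 151, 149.8 and 150.3 CPM, and were at 149.5, 143 and 173 CPM in H89-treated tumors. The log2 fold change of the sum was 0.04 with a standard error of 0.09 (edgeR, Benjamini-Hochberg adjusted p = 0.7995). The log2 ratio of Arrb1 to Arrb2 was 0.03, -0.89 and -0.53 in NaCl tumors and -0.60, -0.68 and -0.36 in H89-treated tumors. By these counts, which were not scaled for gene length, NaCl tumor 1 was the only tumor with as much Arrb1 as Arrb2. Per kilobase of merged exons, Arrb1 was at 6.83 CPM and Arrb2 at 26.3 CPM in that tumor. The group means of the ratio differed by -0.08, with p = 0.8 in an exact two-sided permutation test over 20 splits of the tumors, whose smallest p is 0.1, and by 0.16 with NaCl tumor 1 left out.

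To set the genes in order, CPM were divided by the length of all merged exons in kilobases. In NaCl tumors the level per kilobase was 39.8 ± 2.86 for Grk6, 35.4 ± 1.02 for Grk2, 30.6 ± 3.95 for Arrb2, 5.68 ± 1.07 for Arrb1, 5.53 ± 0.611 for Grk5, 1.44 ± 0.0844 for Grk4 and 0.202 ± 0.0105 for Grk3 (SD over 3 tumors each). A kinase of each subfamily and Arrb2 thus formed an upper group, in which the highest tumor of Arrb2 (34.16) lay just under the lowest of Grk2 (34.25). The single-tumor values of Arrb1 and Grk5 overlapped. In H89-treated tumors the levels per kilobase were 35.6 ± 1.80 for Grk6, 32.6 ± 2.48 for Grk2, 32.2 ± 1.70 for Arrb2, 5.93 ± 0.122 for Grk5, 5.67 ± 0.986 for Arrb1, 2.37 ± 0.388 for Grk4 and 0.485 ± 0.0144 for Grk3 (SD over 3 tumors each). The order was the same but for Grk5 and Arrb1, which traded places within their spread, and the single-tumor values of Grk6, Grk2 and Arrb2 overlapped. With the length of the longest coding transcript in place of the merged exons, Grk2 and Arrb2 came to 46.9 and 47.1 per kilobase in NaCl tumors, so their order depends on the length used. Grk4 and Grk3 stayed last in both groups with either length.

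The 5 genes whose log2(CPM + 0.5) followed that of Grk3 most closely over the 6 tumors were Mapk9, Ccnl2, Clk4, Lekr1 and Pnisr, with Pearson's r of 0.999, 0.998, 0.998, 0.997 and 0.996. This is a description over 6 tumors in 2 groups, and all genes of a tumor share its library size and treatment. Clk4, a kinase of splicing factors, was at 22.8, 23.0 and 24.5 CPM in NaCl tumors and 40.3, 41.3 and 38.9 CPM in H89-treated tumors. Ccnl2, a cyclin that associates with splicing factors, was at 90.5 to 94.7 and 125 to 128 CPM. Pnisr, a serine and arginine rich nuclear protein, was at 55.6 to 60.3 and 92.3 to 95.1 CPM. Mapk9, the stress kinase JNK2, was at 51.5 to 52.3 and 60.8 to 61.5 CPM, and Lekr1 at 4.86 to 4.94 and 5.74 to 5.78 CPM. As with Grk3, the NaCl and H89 values of each lay close together within a group and did not overlap between groups, a pattern that their choice by r with Grk3 favours.

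The genes that work with the kinases and arrestins were counted in 6 lists. In edgeR's quasi-likelihood test 0 genes of any list passed the Benjamini-Hochberg threshold, where 0.861% of all genes tested passed as higher and 0.724% as lower. DESeq2's Wald test, which called 10.6% of all genes tested, called 2 of 22 G protein subunits, 3 of 31 endocytosis genes, 3 of 20 kinase partners and 5 of 29 receptors, and 0 in the other lists. At an unadjusted p under 0.05, 13.1% of all genes tested were counted as higher and 11.9% as lower in H89-treated tumors, and the counts below are to be read against these shares.

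Of the G protein subunits, 22 of 28 were tested, with 1 higher and 4 lower at the unadjusted p and a median log2 fold change of -0.02. Gnai2, the inhibitory alpha subunit abundant in leukocytes, was at 945, 885 and 765 CPM in NaCl tumors and 708, 681 and 654 CPM in H89-treated tumors, without overlap (log2 fold change -0.34, standard error 0.10, edgeR Benjamini-Hochberg adjusted p = 0.101). Gna12, an alpha subunit that signals to the actin cytoskeleton, was at 200 to 212 against 164 to 172 CPM (-0.29, adjusted p = 0.0830 in the same edgeR test). Gng3, a gamma subunit known from neurons, was at 0.324 to 0.410 against 0.6997 to 0.943 CPM (1.16, adjusted p = 0.0827 in edgeR), close to the lowest level tested. Gng3 was the 1 subunit counted as higher. It reached the 0.5 CPM minimum only through the H89-treated tumors (means 0.354 and 0.797 CPM), so the filter favoured that count. Of the RGS proteins, which speed GTP hydrolysis by alpha subunits, 16 of 21 were tested, with 3 higher, 0 lower and a median of -0.06. These were Rgs11 at 1.46 to 2.38 against 2.82 to 4.99 CPM (0.96), Rgs14 at 5.05 to 8.36 against 8.09 to 12.3 CPM (0.60) and Rgs9 at 0.298 to 0.576 against 0.678 to 0.913 CPM (0.86), and the smallest edgeR Benjamini-Hochberg adjusted p in the list was 0.115. Rgs9 also reached the 0.5 CPM minimum only through the H89-treated tumors (means 0.426 and 0.773 CPM), so the filter favoured its count as higher.

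Receptor endocytosis and recycling had 0 higher and 8 lower of 31 tested at the unadjusted p. For 11 the H89 values all lay below the NaCl values (15.5% of all genes tested). The median log2 fold change was -0.13, against -0.06 over all tested genes at 20 CPM or more, where most of this list lies. Cltb, the clathrin light chain b, was at 176, 163 and 141 CPM in NaCl tumors and 121, 111 and 124 CPM in H89-treated tumors (-0.43, standard error 0.10, edgeR Benjamini-Hochberg adjusted p = 0.0764). Epn1, the clathrin adaptor epsin, was at 166 to 239 against 139 to 149.9 CPM (-0.50), and Cyth2, an exchange factor for the GTPase Arf6, at 23.1 to 27.6 against 16.7 to 21.1 CPM (-0.48), each with an adjusted p of 0.0868 in the same edgeR test. The groups did not overlap for any of these 3 genes. Of the ubiquitin ligases and deubiquitinases that act on arrestins and the alpha-arrestins, 13 of 14 were tested, with 2 higher, 0 lower and a median of 0.06. The alpha-arrestin Arrdc2 was at 9.25 to 10.8 against 11.7 to 13.3 CPM (0.36, adjusted p = 0.140 in edgeR), the ligase Itch at 50.2 to 53.5 against 54.6 to 66.0 CPM (0.22) and the deubiquitinase Usp33 at 39.1 to 47.8 against 47.2 to 51.7 CPM (0.21), of which only Usp33 overlapped.

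Of the kinase binding partners and regulators, 20 of 20 were tested, with 2 higher and 6 lower at the unadjusted p. For 8 the H89 values all lay below the NaCl values (15.5% of all genes tested). The median log2 fold change was -0.13, against -0.06 over all tested genes at 20 CPM or more, where most of this list lies. Prkcd, protein kinase C delta, was at 71.3 to 78.5 against 87.2 to 95.01 CPM (0.30, edgeR Benjamini-Hochberg adjusted p = 0.0827), and Pik3r1, a regulatory subunit of PI 3-kinase, at 39.9 to 43.9 against 48.6 to 50.8 CPM (0.26, adjusted p = 0.107 in edgeR). Of the receptors that kinases and arrestins regulate, 29 of 35 were tested, with 4 higher, 3 lower and a median of 0.09. Ccr2, the chemokine receptor of inflammatory monocytes, was at 25.9, 39.8 and 23.8 CPM in NaCl tumors and 49.6, 52.8 and 67.8 CPM in H89-treated tumors, without overlap (0.93, standard error 0.21, edgeR Benjamini-Hochberg adjusted p = 0.0662). C5ar1, a receptor for the complement fragment C5a, was at 26.9 to 29.4 against 19.9 to 23.4 CPM (-0.39, adjusted p = 0.0822 in edgeR), and P2ry2, a nucleotide receptor, at 31.5 to 36.1 against 23.1 to 27.6 CPM (-0.37, adjusted p = 0.0953 in edgeR).

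**Figure D3:**
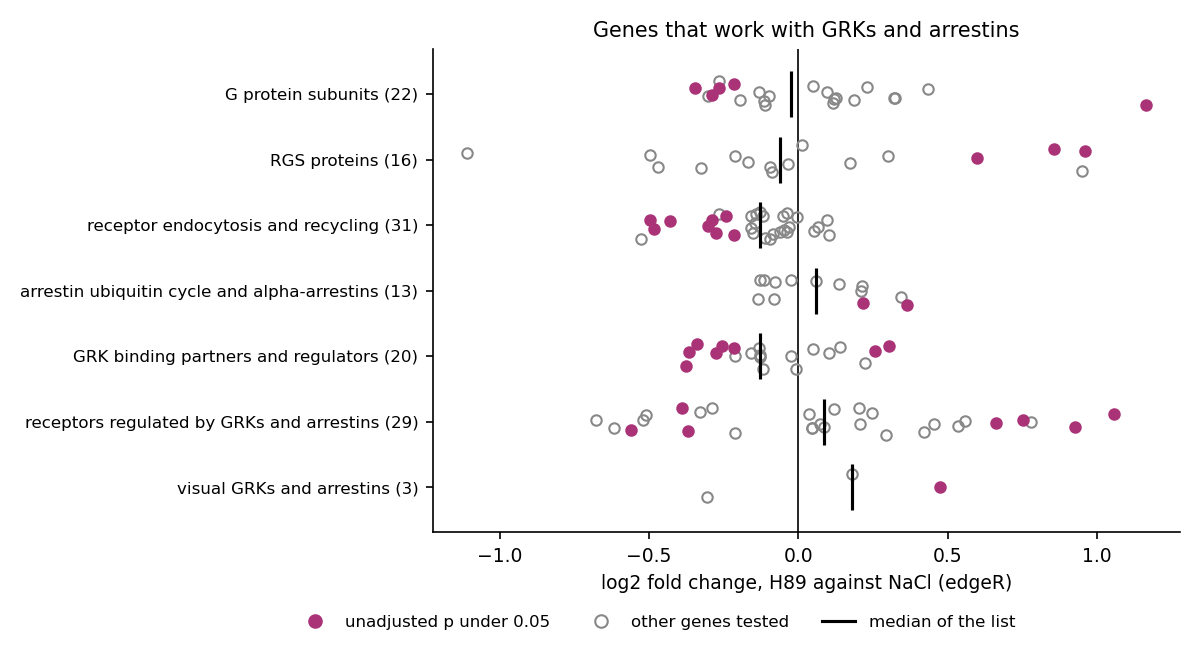
Log2 fold change of each tested gene, H89 against NaCl, in 7 lists, with the number tested in brackets, filled points for an unadjusted p under 0.05 and a black line at the list's median. The 8 filled points among the 31 endocytosis genes all lie left of 0, and the receptors spread to both sides with a median of 0.09.

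Cell type markers moved between tumors as well, and their part in the values above was not tested. The 8 T cell markers of 9 listed that the table holds summed to 15.6 to 34.1 CPM in NaCl tumors and 28.9 to 76.9 CPM in H89-treated tumors, with overlap, and all 8 were above 0 in every tumor. The 5 NK cell markers summed to 5.23 to 14.2 against 15.4 to 35.4 CPM, without overlap, with Klra8 at 0 in every tumor. Taken alone, only Klrk1 among them did not overlap (1.87 to 4.70 against 6.14 to 14.4 CPM). Ncr1 (1.21 to 3.995 against 3.92 to 9.22 CPM), Klrb1c and Eomes overlapped. The 5 dendritic cell markers summed to 8.81 to 9.43 against 13.0 to 15.3 CPM, without overlap. The 5 fibroblast markers (2172 to 2438 against 2450 to 3138 CPM) and the 5 B cell markers (1.40 to 1.87 against 2.32 to 3.44 CPM) did not overlap between groups either. T and NK cell sums were highest in H89-treated tumor 3, at 76.9 and 35.4 CPM.

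The 8 macrophage markers summed to 1194 CPM in NaCl tumor 1 and to 1774 to 1985 CPM in the other NaCl tumors, against 1602 to 1882 CPM in H89-treated tumors. NaCl tumor 1 was also the tumor with the lowest Arrb2 and the highest Arrb1. The 6 skeletal muscle markers summed to 18.8 CPM in H89-treated tumor 1 and to 0.951 to 2.34 CPM in the other 5 tumors, and Myh4 and Myh1 were each at 0 in several of these. That tumor also had the highest adipocyte sum (2.60 CPM, against 0.110 to 0.448 CPM in the others) and the highest Grk4 value, and without it the Grk4 log2 fold change was 0.58 and that of Grk3 1.24. The 7 keratinocyte markers summed to 45.96 to 73.2 CPM in NaCl and 14.0 to 17.9 CPM in H89-treated tumors, of which Cdsn gave 43.1 to 69.7 and 10.3 to 14.3 CPM and Krt10 1.90 to 3.36 and 2.89 to 3.56 CPM, with Krt1 and Dsg1a at 0 throughout. Erythroid markers summed to 65.1 to 106 CPM in NaCl tumors and to 29.5, 21.3 and 221 CPM in H89-treated tumors 1 to 3, the last also the H89-treated tumor with the highest Arrb1. Such matches in single tumors are a description, and no link between markers and members was tested.

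**Figure D4:**
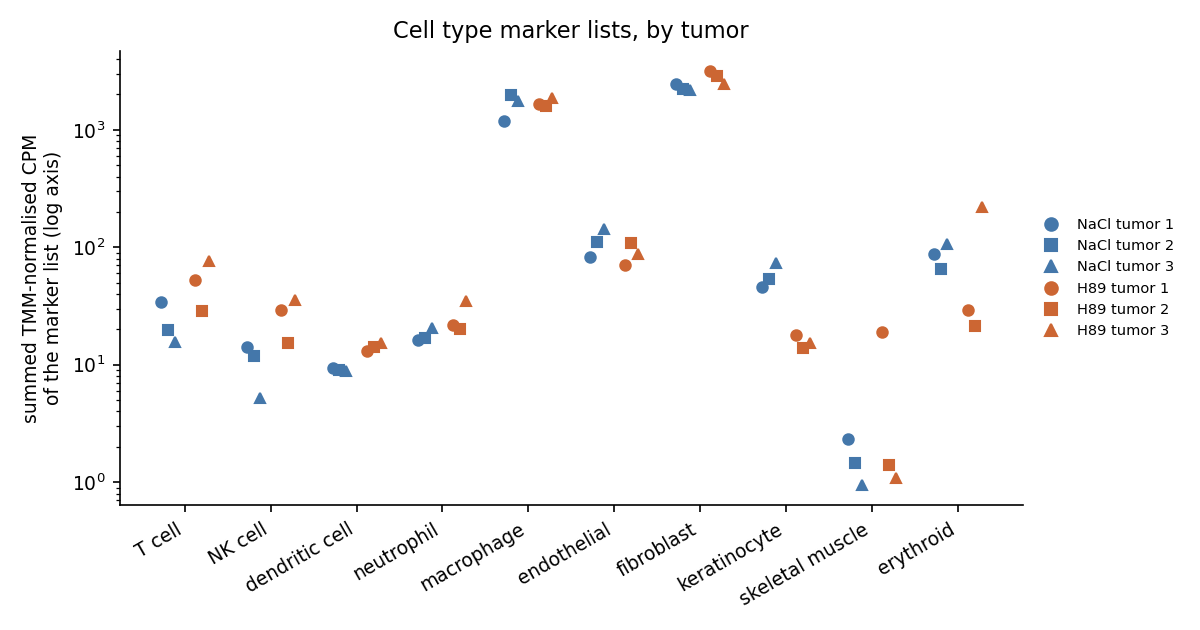
Summed TMM-normalised CPM of 10 cell type marker lists in each tumor on a log axis, with NaCl tumors in blue and H89-treated tumors in orange. NK cell, dendritic cell, fibroblast and keratinocyte sums do not overlap between groups. Among the NK cell markers only Klrk1 does not overlap by itself. Most of the keratinocyte sum comes from Cdsn (43.1 to 69.7 against 10.3 to 14.3 CPM), and Krt10 overlaps. H89-treated tumor 1 stands out in skeletal muscle markers (18.8 CPM) and H89-treated tumor 3 in erythroid markers (221 CPM).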

How the data were processed

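RNA of 6 CT26 tumors (3 NaCl, 3 H89) was analysed, grouped by the sample labels. The authors deposited 1 table of 23557 genes. It is named TPM, but the sum differs from tumor to tumor, and most values above 0 (58.6% to 61.4% per tumor) are whole numbers to within 0.01, so the values were read as estimated counts that the authors had not scaled for library size. The submitters' processing notes name kallisto, DESeq2 and GRCm38, and versions, index and read filters are not given in the sources used here. Of the gene columns, 244 were recorded one by one and 23313 were read in the same way.

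After rounding, the 13118 genes whose mean reached 0.5 CPM entered the fit of edgeR 4.0.16 under R 4.3.3 (TMM, glmQLFit, glmQLFTest, treatment as the only term, Benjamini-Hochberg adjustment over all genes tested). Standard errors were derived from the F statistic as the size of the log2 fold change over its square root. The CPM printed are TMM-normalised, and 1 count equals 0.0304 to 0.0373 CPM. On simulated counts the test recovered 84.8% of genes changed by 1 and 98.0% of those changed by 2 on the log2 scale (13040 genes, 200 changed). It also called 7 unchanged genes. The simulated spread of each gene came from the trend over all genes, so these shares may not hold for these tumors. Alternatives were no filter, at least 5 CPM, median of ratios normalization, quantile normalization with limma 3.58.1, DESeq2 1.42.0, a replicate block, and a fit without each tumor in turn. The columns of the table held no comparisons made by the authors.

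The members and lists were chosen with earlier results of these data known. The genes named are the 7 members, the 3 genes of each list with the smallest unadjusted p where no gene passed the adjusted threshold, and the 5 most like Grk3, except that 1 gene of the kinase partner list is not reported here. Cell type markers serve as checks. Words of 31 bases and coding identity came from GENCODE M21 (GRCm38). Neither labels nor paper give a batch or date.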

Additional observations from a re-analysis of the deposited data

How the results depend on the processing

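Grk2 and Grk6 stayed at negative log2 fold changes and Grk5 and Grk4 at positive ones under all alternatives run. The ranges were -0.16 to -0.04 for Grk2, -0.22 to -0.09 for Grk6, 0.03 to 0.19 for Grk5 and 0.56 to 0.80 for Grk4. Grk3 did not reach a mean of 5 CPM and was absent from that alternative. In the others Grk3 was at 0.86 to 1.29, lowest with quantile normalization (1.22 to 1.29 with a tumor left out). Its positive sign follows from the choice of the family by Grk3 and is a description only. Grk4 passed the threshold with DESeq2 only (0.72, adjusted p = 0.00375), which made 1 member called in place of 0. Arrb1, near 0, turned positive with at least 5 CPM (0.0303), quantile normalization (0.0237) and the replicate block (0.00086), and lay between -0.15 and 0.15 with a tumor left out. Leaving out a tumor gave -0.0209 to 0.16 for Arrb2 (negative without NaCl tumor 1), -0.0439 to 0.10 for the beta-arrestin sum (negative without H89-treated tumor 3) and -0.29 to 0.16 for the Arrb1 to Arrb2 ratio. The log2 ratio of Grk2 to Arrb2 per kilobase was -0.0042 with the coding transcript length, an alternative chosen after seeing the data. The 208 genes called over the whole table became 80 with quantile normalization (55 higher and 25 lower, against 113 and 95), 1393 with DESeq2, 0 with the replicate block (3750 at an unadjusted p under 0.05) and 0 to 12 with a tumor left out (12 without H89-treated tumor 3, 2 without NaCl tumor 1, otherwise 0, with 2401 to 3440 at an unadjusted p under 0.05, where fewer tumors enter the fit). In place of 0, DESeq2 called 2 G protein subunits, 3 endocytosis genes, 3 kinase partners and 5 receptors, and edgeR with no filter 1 receptor. Elsewhere the cause was not tested. Same-numbered tumors did not deviate together (correlations of 0.16, 0.06 and -0.02), so the numbers were not taken to pair the tumors. Of the 6 members tested, 0 passed with or without the block. As the block called 0 genes over the whole table, that count cannot tell whether the tumors are paired. With 3 tumors per group, a change of the size of the Arrb1 standard error (0.17) could not be detected, and Grk3 rests on the fewest counts.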

Other observations

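The GPCR kinase and arrestin best known from photoreceptors were also present in the table. Grk1, the photoreceptor kinase, was at 9.14, 8.17 and 7.61 CPM in NaCl tumors and 12.7, 10.5 and 11.4 CPM in H89-treated tumors. All 3 H89 values lay above the NaCl values, as for 15.2% of all genes tested. The log2 fold change of 0.47 (standard error 0.14, unadjusted p = 0.00947) did not pass the Benjamini-Hochberg threshold in edgeR's quasi-likelihood test (adjusted p = 0.101). Sag, the rod arrestin, was at 7.85, 8.54 and 7.94 CPM and 9.70, 9.28 and 8.55 CPM, with the lowest H89 value just above the highest NaCl value (log2 fold change 0.18, edgeR Benjamini-Hochberg adjusted p = 0.419).

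Other genes known from photoreceptors were near 0, with at most 0.152 CPM for Gnat1, 0.0720 CPM for Arr3 and 0.0366 CPM for Rcvrn, whereas Gnat2, the cone alpha subunit, was at 1.44 to 1.57 against 0.928 to 1.46 CPM. Of the 7 genes in this list 3 were tested, with 1 higher and 0 lower at an unadjusted p under 0.05 in edgeR. Of all genes tested, 13.1% were higher and 11.9% lower by that measure. The median log2 fold change of the 3 genes was 0.18, against 0.16 over all tested genes with a mean below 20 CPM, where they lie. Of the words of 31 bases in Grk1, 3.82% also occurred in transcripts of 305 other genes, and 5.77% of those in Sag in transcripts of 1478 other genes.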
